A study of Mus musculus with 250 samples.

Results

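The spleens of mice with breast tumors were compared with the spleens of matched mice without tumors. All 50 spleen arrays of the study's 250 arrays were taken, which the labels give as whole spleen, and no array was chosen by a measured value. The 25 tumor-bearing mice were female FVB mice that carried both MMTV-rtTA and TetO-NeuNT, so that doxycycline switched on NeuNT, an activated form of the Neu (Her2) receptor tyrosine kinase. The 25 controls were female FVB littermates with TetO-NeuNT but without MMTV-rtTA. Both groups therefore carried the NeuNT transgene, and both drank water with 2 mg/mL doxycycline and 5% sucrose, from 8 weeks of age. A tumor-bearing mouse and its control, which the labels match by age and cage, were killed together once the tumor measured about 1 cm, and the spleen was snap-frozen. The ages at that point are not given in the labels. MMTV-rtTA is driven by the mouse mammary tumor virus promoter, which is active in mammary epithelium and is also known to be active in some lymphoid cells. RNA of whole spleen was hybridised to Affymetrix Mouse Genome 430 2.0 arrays, 1 array per mouse.

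The spleen filters blood through its red pulp, where macrophages remove old red cells and recycle their iron. Its white pulp holds B cell follicles and T cell zones, which stromal cells lay out with chemokines such as Cxcl13. In mice the red pulp also makes blood cells throughout life, and this production can expand under stress, inflammation or tumor growth.

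Levels are log2 intensity, changes are the log2 difference of a tumor-bearing mouse minus its matched control, and a change is given with its standard error. Calls are from limma at an adjusted p under 0.05, with the matched pair as a block and Benjamini-Hochberg adjustment over all 18193 genes. For arrays it is their number that limits the precision.

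Before any change is given, 3 of the 50 arrays have to be set apart. Array medians lay between 100.4 and 111.3 intensity, and 47 arrays had a correlation of at least 0.981 with the median spleen array over all probe sets. The array of the tumor-bearing mouse of pair 21 had a correlation of 0.928, against 0.824 in its control and 0.821 in the control of pair 13. These 3 arrays went against their label. Umod, which encodes uromodulin of the kidney tubule, was at 14.34 and 13.46 in the controls of pairs 13 and 21, against at most 5.07 in the 47 other arrays. Miox, an enzyme of the kidney tubule, was at 14.55 and 14.33 there, against at most 4.77. The tumor-bearing mouse of pair 21 had 12.63 for Rag1, the recombinase of developing lymphocytes, against at most 4.95 in the 47 other arrays, and 13.83 for Scgb1a1, a secretory protein of the airway, against at most 4.69. The spleen markers Ms4a1 and Spic were low in all 3. Ms4a1, the CD20 antigen of B cells, was at 10.75 in the tumor-bearing mouse of pair 21 and at 6.73 and 7.10 in the 2 controls, below the range of 12.5 to 13.80 in the other arrays. Spic, the transcription factor of red pulp macrophages, was at 8.03 in that tumor-bearing mouse and at 5.33 and 5.46 in the 2 controls, against 10.01 to 11.51. The 47 other arrays carried B cell, red pulp and Tlx1 signal, Tlx1 being the homeobox factor that spleen development needs. Results are therefore given for all 25 pairs and for the 23 pairs without pairs 13 and 21, or for the 23 pairs alone where so stated, and the lowest, median and highest levels are those of the 23 pairs.

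**Figure D1:**
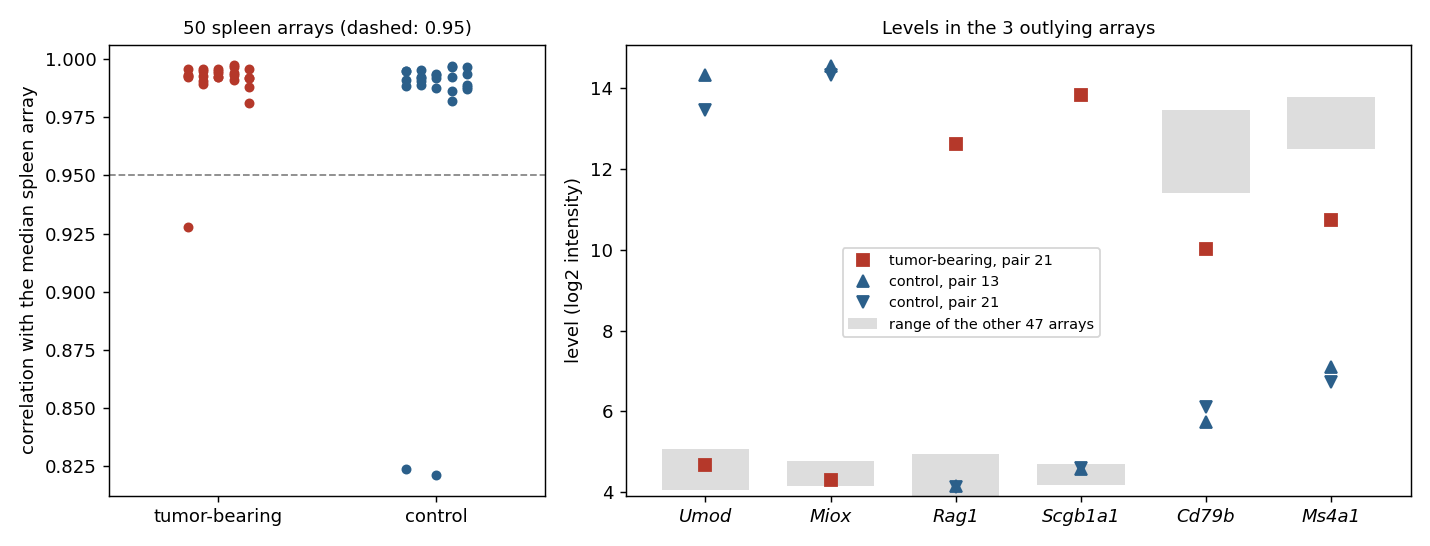
Left, correlation of each spleen array with the median spleen array over all probe sets (log2), with a dashed line at 0.95. Right, levels (log2 intensity) of 6 genes in the 3 arrays below that line, over grey bars for the range of the 47 other arrays: the controls of pairs 13 and 21 were high for the kidney genes Umod and Miox, the tumor-bearing mouse of pair 21 was high for Rag1 and Scgb1a1, and all 3 were low for the B cell genes Cd79b and Ms4a1.

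A second feature of the tissue pieces touched both groups. The mean of 12 genes of pancreas, the organ that adjoins the spleen, lay between 5.58 and 13.50 in tumor-bearing mice and between 5.51 and 14.08 in controls, and it was above 9 in 8 tumor-bearing and 9 control arrays. By limma none of the 12 pancreas genes was called in 25 or 23 pairs, and 0 of 12 had an unadjusted p under 0.05 over 25 pairs. Some counts are therefore also given for the 9 pairs in which neither array was outlying or high for pancreas. RNA integrity was read from the signal at the 3 prime end over that at the 5 prime end of Gapdh. On the log2 scale this averaged -0.18 ± 0.19 among tumor-bearing mice and -0.30 ± 0.12 among controls (SD, n = 25 each). The difference of 0.12 ± 0.046 passed a two-sided sign-flip permutation test (adjusted p = 0.0264, higher in 17 of 25 pairs), but not over the 23 pairs (0.0967 ± 0.041, adjusted p = 0.0595). For actin the difference was 0.0464 ± 0.039 (adjusted p = 0.253). With both ratios as covariates over the 23 pairs, 4964 genes were higher and 4660 lower. All tumor-bearing samples have odd and all controls even numbers at the end of their names, so that if these are positions on a plate, position and group cannot be told apart.

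Over all 25 pairs, 4081 of 18193 genes (22.4%) were higher in tumor-bearing mice and 3327 (18.3%) were lower. Over the 23 pairs the counts were 5370 higher (29.5%) and 4847 lower (26.6%), and of these 4017 and 3249 were among the calls of the 25 pairs. The 9 pairs still gave 3320 higher genes (18.2%) and 3051 lower ones (16.8%). Most changes were small. Changes of at least 2-fold were found for 487 higher and 30 lower genes over the 25 pairs, and for 471 higher and 69 lower genes over the 23. In 160 genes (0.879%) all 23 tumor-bearing mice were above all 23 controls, and in 91 genes (0.5%) all were below. These shares are the background against which the counts in each group of genes are read. In whole tissue, fewer cells of a type, a smaller share of them among all cells and less RNA per cell cannot be told apart. The same holds for rises, and for every change below.

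Among the 42 gene lists the neutrophil lists had the highest median changes. Of 9 measured genes of the primary granules, which form in promyelocytes, the early neutrophil precursors, 8 rose in both 25 and 23 pairs, against backgrounds of 22.4% and 29.5%, and the median change of the 9 was 2.81 over the 23 pairs. Of 15 genes of the secondary and tertiary granules, which form later, 14 rose, with a median of 2.46. Of 15 genes of the neutrophil surface and cytosol, 14 rose over 25 pairs and 15 over 23, with a median of 2.30. The groups did not overlap over the 23 pairs for 5, 10 and 14 genes of these lists, against 0.879% of all genes.

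Elane, the neutrophil elastase of primary granules, lay between 11.86 and 13.72 (median 12.58) in tumor-bearing mice, against between 8.08 and 11.18 (median 9.61) in controls. Its change was 2.91 ± 0.20 in 23 pairs (adjusted p = 8.7e-12) and 2.86 ± 0.26 in 25 pairs (adjusted p = 2.09e-09), a 7.51-fold rise over the 23 pairs. Every tumor-bearing mouse of the 23 pairs was above every control. Prtn3, the protease of the same granules, lay between 11.69 and 13.77 (median 12.72) in tumor-bearing mice, against between 7.79 and 11.05 (median 9.41) in controls, and changed by 3.27 ± 0.21 in 23 pairs (adjusted p = 2.96e-12) and 3.27 ± 0.25 in 25 pairs (adjusted p = 2.24e-10). Mpo, which makes hypochlorous acid, lay between 12.43 and 14.02 (median 13.12) in tumor-bearing mice, against between 8.60 and 11.97 (median 10.34) in controls, and changed by 2.81 ± 0.22 in 23 pairs (adjusted p = 4.51e-11) and 2.80 ± 0.29 in 25 pairs (adjusted p = 1.43e-08). For both genes the lowest tumor-bearing mouse was above the highest control. Ctsg, cathepsin G, changed by 3.48 ± 0.22 and 3.44 ± 0.28 in 23 and 25 pairs, and Ms4a3, a membrane protein of granulocyte and monocyte precursors, by 3.16 ± 0.21 and 3.10 ± 0.27 in 23 and 25 pairs. Gfi1, the repressor that granulocyte formation needs, rose by 1.18 ± 0.15 and 1.5 ± 0.26 in 23 and 25 pairs. The exception was Ctsc, the cathepsin C that activates the granule proteases and is made by many other cells, which fell by 0.44 ± 0.04 over 23 pairs (adjusted p = 1.25e-10).

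Among the later granule genes, Ltf, lactoferrin, lay between 12.43 and 14.32 (median 13.39) in tumor-bearing mice, against between 8.79 and 12.28 (median 10.80) in controls, with no overlap of the groups. Its change was 2.69 ± 0.20 in 23 pairs (adjusted p = 2.73e-11) and 2.95 ± 0.26 in 25 pairs (adjusted p = 1.64e-09). Camp, the cathelicidin, changed by 2.13 ± 0.18 and 2.16 ± 0.25 in 23 and 25 pairs, Ngp, a granule protein of the cystatin type, by 1.71 ± 0.14 and 1.74 ± 0.21 in 23 and 25 pairs, and Lcn2, which binds bacterial siderophores, by 2.46 ± 0.18 and 2.47 ± 0.24 in 23 and 25 pairs. Wider changes were seen in Cd177, a surface protein of neutrophils, which lay between 10.00 and 12.77 (median 11.13) in tumor-bearing mice, against between 5.36 and 9.27 (median 7.57) in controls and changed by 3.74 ± 0.24 in 23 pairs (adjusted p = 2.31e-12) and 3.79 ± 0.27 in 25 pairs (adjusted p = 5.63e-11). The collagenase Mmp8 changed by 3.26 ± 0.21 and 3.20 ± 0.25 in 23 and 25 pairs, the gelatinase Mmp9 by 2.94 ± 0.20 and 3.01 ± 0.21 in 23 and 25 pairs, and Padi4, the enzyme that citrullinates histones, by 2.58 ± 0.21 and 2.59 ± 0.20 in 23 and 25 pairs.

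The largest change in the spleen was that of Stfa2l1, a stefin A, which inhibits cysteine proteases. It lay between 8.86 and 11.88 (median 10.34) in tumor-bearing mice, against between 5.79 and 7.09 (median 6.33) in controls, and its change was 3.94 ± 0.16 in 23 pairs (adjusted p = 6.37e-16) and 3.83 ± 0.21 in 25 pairs (adjusted p = 1.31e-12), a 15.3-fold rise over the 23 pairs. The groups did not overlap. Csf3r, the receptor of the granulocyte growth factor G-CSF, lay between 10.60 and 12.12 (median 11.37) in tumor-bearing mice, against between 8.22 and 9.31 (median 8.78) in controls, and changed by 2.65 ± 0.10 in 23 pairs (adjusted p = 1.84e-16) and 2.68 ± 0.18 in 25 pairs (adjusted p = 1.86e-11). Cxcr2, the chemokine receptor by which neutrophils leave the marrow, rose by 2.30 ± 0.12 and 2.24 ± 0.16 in 23 and 25 pairs, Clec4e, a C-type lectin receptor, by 2.98 ± 0.14 and 2.92 ± 0.19 in 23 and 25 pairs, and Slfn4, a Schlafen gene of myeloid cells, by 3.75 ± 0.17 and 3.70 ± 0.22 in 23 and 25 pairs. The alarmins S100a8 and S100a9, which together form calprotectin, changed by 1.09 ± 0.08 and 1.20 ± 0.15 in 23 and 25 pairs and by 1.28 ± 0.10 and 1.33 ± 0.17 in 23 and 25 pairs. Other genes among the 12 largest rises were Chil1, a chitinase-like protein, with 3.41 ± 0.20 and 3.37 ± 0.23 in 23 and 25 pairs, Ceacam10 with 3.35 ± 0.21 and 3.29 ± 0.22 in 23 and 25 pairs, and Wfdc21 with 3.18 ± 0.20 and 3.13 ± 0.29 in 23 and 25 pairs. In every gene of this paragraph, all 23 tumor-bearing mice were above all 23 controls.

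C/EBP factors drive granule genes. Of 17 genes of myeloid growth factors, their receptors and C/EBP and other myeloid factors 10 rose and 3 fell over 25 pairs. Over 23 pairs 11 rose and 4 fell, with a median of 0.18. Over all genes 22.4% rose and 18.3% fell over 25 pairs, and 29.5% and 26.6% over 23, so that the falls were near these shares. Cebpd changed by 1.51 ± 0.09 in 23 pairs (adjusted p = 3.95e-13) and 1.43 ± 0.11 in 25 pairs (adjusted p = 1.7e-10) and Cebpb by 0.71 ± 0.07 in 23 pairs (adjusted p = 1.99e-09) and 0.70 ± 0.08 in 25 pairs (adjusted p = 1.1e-07). Csf2rb, the common beta chain of the receptors of GM-CSF, IL-3 and IL-5, rose by 1.09 ± 0.09 and 1.38 ± 0.21 in 23 and 25 pairs. Csf1, for the growth factor of macrophages, and its receptor gene Csf1r fell, with changes of -0.54 ± 0.04 and -0.44 ± 0.08 in 23 and 25 pairs and of -0.31 ± 0.04 and -0.22 ± 0.07 in 23 and 25 pairs. The promoter windows that follow are those of genes from the lists that moved together, from 250 bases before to 50 after the start of the gene, as RefSeq gives them for GRCm38.p6. The C/EBP type of motif, TTGCNNAA, was searched on both strands. It was found for 7 of 20 granule genes with a window (35.0%), against 10.8% of 14452 measured genes with a window. It was also found for 5 of 15 T cell genes (33.3%) and 3 of 16 B cell genes (18.75%), lists that fell. The window of Ltf is shown as an example with a match, in capitals, on the other strand. Lcn2 also had a match in its window, while the windows of Elane, Prtn3, Mpo and Cd177 had none. A match describes the letters and is not a shown binding site.
Ltf (chr9:111019042-111019341, plus strand): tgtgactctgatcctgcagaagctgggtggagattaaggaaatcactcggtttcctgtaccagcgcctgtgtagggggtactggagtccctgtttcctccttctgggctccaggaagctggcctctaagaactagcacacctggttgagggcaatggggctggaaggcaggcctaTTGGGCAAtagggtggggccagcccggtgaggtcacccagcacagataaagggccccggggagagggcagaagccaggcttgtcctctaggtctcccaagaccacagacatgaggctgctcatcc

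**Figure D2:**
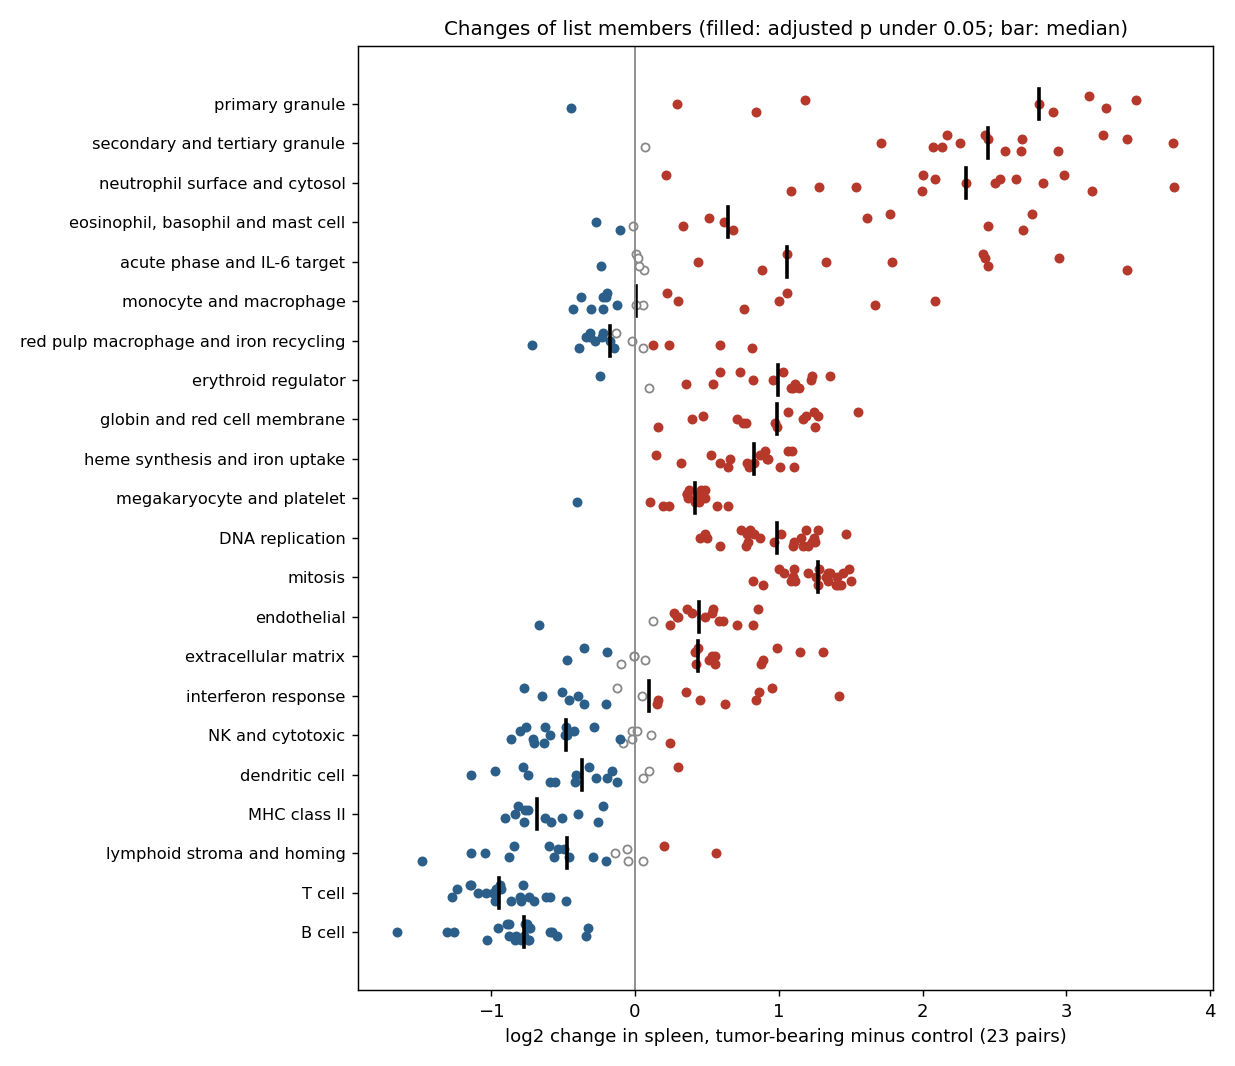
Change of each measured member of the gene lists (log2, tumor-bearing minus control, 23 pairs), with 1 point per gene and a black bar at the median of the list. Filled points were called at an adjusted p under 0.05, red for higher and blue for lower: the neutrophil lists had medians of 2.30 to 2.81, the mitosis list of 1.28, the B cell list of -0.77 and the T cell list of -0.94.

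Genes of other granulocytes rose too. Of 12 measured genes of eosinophils, basophils and mast cells, 9 rose over both sets of pairs, while 1 fell over 25 pairs and 2 over 23. Over all genes 22.4% rose and 18.3% fell over 25 pairs, and 29.5% and 26.6% over 23. Prg2, the major basic protein of eosinophils, lay between 8.79 and 12.90 (median 11.46) in tumor-bearing mice, against between 4.67 and 10.76 (median 8.79) in controls, so that the groups overlapped. Its change was 2.70 ± 0.28 in 23 pairs (adjusted p = 4.4e-09) and 2.78 ± 0.31 in 25 pairs (adjusted p = 5.98e-08). Epx, the eosinophil peroxidase, changed by 2.46 ± 0.22 and 2.40 ± 0.23 in 23 and 25 pairs and Siglecf, a sialic acid receptor of eosinophils, by 1.61 ± 0.17 and 1.56 ± 0.17 in 23 and 25 pairs. Mcpt8, the basophil protease, changed by 1.78 ± 0.18 and 1.71 ± 0.18 in 23 and 25 pairs. Hdc, which makes histamine and is found in basophils, mast cells and myeloid precursors, lay between 8.98 and 11.33 (median 9.91) in tumor-bearing mice, against between 6.63 and 7.91 (median 7.23) in controls, without overlap, and changed by 2.76 ± 0.15 in 23 pairs (adjusted p = 1.46e-13) and 2.57 ± 0.20 in 25 pairs (adjusted p = 2.5e-10). Against this direction, Il5ra, the IL-5 receptor chain of eosinophils, changed by -0.27 ± 0.07 in 23 pairs (adjusted p = 0.00074) and -0.36 ± 0.09 in 25 pairs (adjusted p = 0.00118).

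Acute phase and IL-6 target genes rose in 10 of 15 over both sets of pairs, against 22.4% and 29.5% of all genes over 25 and 23. Between groups 4 of the 15 did not overlap over the 23 pairs, against 0.879% of all genes. Hp, Lcn2 and Orm1 are in the later granule list as well. Lrg1, a leucine-rich glycoprotein, lay between 11.62 and 13.18 (median 12.43) in tumor-bearing mice, against between 9.0 and 10.06 (median 9.39) in controls, and changed by 2.95 ± 0.11 in 23 pairs (adjusted p = 1.58e-16) and 3.06 ± 0.16 in 25 pairs (adjusted p = 1.08e-12). Hp, haptoglobin, which binds free hemoglobin, lay between 11.12 and 13.14 (median 11.94) in tumor-bearing mice, against between 7.10 and 9.65 (median 8.51) in controls and changed by 3.42 ± 0.19 in 23 pairs (adjusted p = 2.25e-13) and 3.52 ± 0.20 in 25 pairs (adjusted p = 1.89e-12). In both genes all 23 tumor-bearing mice were above all controls. Socs3, the feedback inhibitor of the IL-6 and G-CSF receptors, rose by 1.33 ± 0.09 and 1.45 ± 0.12 in 23 and 25 pairs, and Steap4, a metalloreductase, by 2.42 ± 0.15 and 2.49 ± 0.15 in 23 and 25 pairs. Saa3, a serum amyloid A of macrophages, ranged widely, between 6.12 and 11.01 (median 7.47) in tumor-bearing mice, against between 5.61 and 7.24 (median 6.12) in controls, and changed by 1.78 ± 0.29 in 23 pairs (adjusted p = 7.59e-06) and 1.79 ± 0.28 in 25 pairs (adjusted p = 8.58e-06).

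Erythroid genes rose together, by less than neutrophil genes. Of 15 genes of globin and the red cell membrane, 13 rose over 25 pairs and 15 over 23, against 22.4% and 29.5% of all genes. All 17 genes of heme synthesis and iron uptake rose over both. Of 16 erythroid regulators 14 rose over both, and 1, Ldb1, fell over 23 pairs (-0.24 ± 0.04 and -0.12 ± 0.09 in 23 and 25 pairs). The medians of the 3 lists were 0.99, 0.83 and 0.99 over the 23 pairs.

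Gata1, the master transcription factor of red cells and megakaryocytes, lay between 11.02 and 11.64 (median 11.35) in tumor-bearing mice, against between 8.89 and 11.51 (median 10.25) in controls, and changed by 1.14 ± 0.11 in 23 pairs (adjusted p = 2.23e-09) and 1.25 ± 0.18 in 25 pairs (adjusted p = 2.53e-06). Klf1, the factor that turns on adult globin, lay between 12.70 and 13.37 (median 12.84) in tumor-bearing mice, against between 10.01 and 13.33 (median 11.90) in controls, and changed by 1.11 ± 0.13 in 23 pairs (adjusted p = 5.12e-08) and 1.12 ± 0.25 in 25 pairs (adjusted p = 0.000705). For Klf1 the groups overlapped over the 23 pairs through 1 control, that of pair 16, at 13.33. The other controls were at most at 12.59. Tal1 changed by 1.23 ± 0.13 and 1.38 ± 0.22 in 23 and 25 pairs and Nfe2 by 1.35 ± 0.14 and 1.49 ± 0.23 in 23 and 25 pairs. Epor, the erythropoietin receptor, changed by 1.03 ± 0.11 and 1.01 ± 0.16 in 23 and 25 pairs. Among the membrane genes, Icam4 changed by 1.55 ± 0.17 and 1.62 ± 0.24 in 23 and 25 pairs. Ank1, the ankyrin that ties the membrane to its skeleton, changed by 1.25 ± 0.13 and 1.31 ± 0.16 in 23 and 25 pairs. Rhd, of the Rh complex, changed by 1.17 ± 0.14 and 1.29 ± 0.25 in 23 and 25 pairs. The anion exchanger Slc4a1 changed by 0.40 ± 0.08 in 23 pairs (adjusted p = 9.26e-05) and 0.31 ± 0.22 in 25 pairs (adjusted p = 0.293). Its 2 other probe sets changed by 0.86 and 0.79 over the 23 pairs. Hba-a1, of alpha globin, counts among the 15, but its probe set lay between 4.52 and 5.41 (median 5.00) in tumor-bearing mice, against between 4.52 and 5.14 (median 4.85) in controls, and it is not read as a globin level. In heme synthesis, Alas2, the first enzyme of the pathway in red cells, rose by 0.65 ± 0.08 and 0.83 ± 0.18 in 23 and 25 pairs. Uros rose by 0.92 ± 0.09 and 0.91 ± 0.11 in 23 and 25 pairs and Ppox by 0.79 ± 0.07 and 0.81 ± 0.10 in 23 and 25 pairs. The transferrin receptors Tfrc and Tfr2, which bring in iron and sense it, rose by 0.91 ± 0.10 and 0.95 ± 0.12 in 23 and 25 pairs and by 1.06 ± 0.10 and 1.05 ± 0.14 in 23 and 25 pairs.

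The spread was part of the erythroid pattern. The mean of the erythroid regulators lay between 11.23 and 11.72 (median 11.48) in tumor-bearing mice, against between 9.74 and 11.68 (median 10.69) in controls, so that the tumor-bearing mice held a narrow band at the top of the control range. The SD over mice was smaller in tumor-bearing mice for 16 of 16 erythroid regulators, 17 of 17 heme genes and 14 of 15 globin and membrane genes, against 54.9% of all genes. The median ratio of the SD in tumor-bearing mice over that in controls was 0.35, 0.36 and 0.29, against 0.968 over all genes. The control of pair 16 was the only one of the 23 controls to reach the tumor-bearing range of the erythroid regulators. In pair 16 the difference was 0.005 for the erythroid regulators and 0.167 for mitosis, yet 1.47 for the neutrophil surface and cytosol list, -0.318 for B cells and -0.612 for T cells.

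Signals that act on stress erythropoiesis, the rapid red cell production of the mouse spleen, did not move as 1 group. Of 10 measured genes 3 rose and 2 fell over 25 pairs, against 22.4% and 18.3% of all genes. Over 23 pairs 4 rose and 3 fell, against 29.5% and 26.6%. These counts are near the shares of all genes. Bmp4, which starts this program in mice, changed by -0.28 ± 0.07 in 23 pairs (adjusted p = 0.00111) and -0.44 ± 0.13 in 25 pairs (adjusted p = 0.00626). Nr3c1, the glucocorticoid receptor, lay between 10.24 and 10.81 (median 10.55) in tumor-bearing mice, against between 10.66 and 11.13 (median 10.88) in controls, with overlap, and changed by -0.34 ± 0.03 in 23 pairs (adjusted p = 3.78e-10) and -0.30 ± 0.04 in 25 pairs (adjusted p = 1.07e-06). Kit, the stem cell factor receptor, changed by 0.14 ± 0.06 in 23 pairs (adjusted p = 0.0499) and 0.13 ± 0.06 in 25 pairs (adjusted p = 0.0804), past the threshold over the 23 pairs alone. The other probe set of Kit changed by -0.15 over the 23 pairs, so that the direction depended on the probe set.

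GATA motifs, AGATAA or TGATAA on either strand, which share the letters GATAA, were found in the windows of 20 of 38 genes of the erythroid lists (52.6%), against 14.96% of all measured genes with a window. The windows of Klf1, for a regulator, Alas2, for heme, and Epb42, for the membrane, are shown with the match in capitals. All 3 matches lie on the other strand and so read TTATCA or TTATCT. The window of Gata1 itself had no match.
Klf1 (chr8:84901732-84902031, plus strand): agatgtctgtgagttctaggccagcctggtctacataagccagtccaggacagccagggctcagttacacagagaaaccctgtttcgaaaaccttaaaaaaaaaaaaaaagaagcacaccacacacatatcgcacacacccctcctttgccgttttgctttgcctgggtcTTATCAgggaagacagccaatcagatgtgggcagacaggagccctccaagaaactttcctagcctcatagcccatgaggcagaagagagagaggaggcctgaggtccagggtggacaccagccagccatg
Alas2 (chrX:150547167-150547466, plus strand): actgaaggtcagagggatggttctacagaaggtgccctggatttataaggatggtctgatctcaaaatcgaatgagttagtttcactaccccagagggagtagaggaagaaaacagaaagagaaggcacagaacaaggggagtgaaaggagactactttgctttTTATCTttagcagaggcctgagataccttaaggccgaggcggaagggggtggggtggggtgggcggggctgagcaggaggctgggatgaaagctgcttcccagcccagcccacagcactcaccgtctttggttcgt
Epb42 (chr2:121036828-121037127, minus strand): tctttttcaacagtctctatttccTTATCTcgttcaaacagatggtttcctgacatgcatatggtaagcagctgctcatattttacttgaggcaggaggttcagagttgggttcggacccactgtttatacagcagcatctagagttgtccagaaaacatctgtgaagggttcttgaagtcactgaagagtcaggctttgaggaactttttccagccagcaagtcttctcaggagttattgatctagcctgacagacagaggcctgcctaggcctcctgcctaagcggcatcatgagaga

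Megakaryocyte and stem cell genes changed less. Over all genes 22.4% rose and 18.3% fell over 25 pairs, and 29.5% and 26.6% over 23. Of 17 megakaryocyte and platelet genes, 15 rose over 25 pairs, and 16 rose and 1 fell over 23, with a median of 0.41. Itga2b, an integrin of platelets, rose by 0.49 ± 0.06 and 0.56 ± 0.11 in 23 and 25 pairs, Gp9, of the von Willebrand factor receptor, by 0.57 ± 0.05 and 0.69 ± 0.14 in 23 and 25 pairs, and Thbs1, thrombospondin 1, by 0.64 ± 0.07 and 0.59 ± 0.12 in 23 and 25 pairs. Of 19 stem and progenitor genes 8 rose and 2 fell over 25 pairs, and 12 rose and 4 fell over 23, with a median of 0.22. Myb, which immature blood cells need, lay between 10.69 and 11.77 (median 11.10) in tumor-bearing mice, against between 9.60 and 10.91 (median 10.20) in controls, with overlap, and changed by 0.86 ± 0.09 in 23 pairs (adjusted p = 1.31e-08) and 1.34 ± 0.34 in 25 pairs (adjusted p = 0.00191). Erg, a factor of stem cells, megakaryocytes and endothelium, lay between 8.60 and 9.77 (median 9.12) in tumor-bearing mice, against between 7.93 and 8.52 (median 8.30) in controls, without overlap, and changed by 0.91 ± 0.07 in 23 pairs (adjusted p = 6.62e-11) and 0.82 ± 0.09 in 25 pairs (adjusted p = 9.1e-08). Cd34 rose by 0.88 ± 0.08 and 0.80 ± 0.10 in 23 and 25 pairs.

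All 24 genes of DNA replication and all 24 genes of mitosis rose over 25, 23 and 9 pairs, against backgrounds of 22.4%, 29.5% and 18.2%. The medians over the 23 pairs were 0.99 and 1.28. Mki67, the Ki-67 antigen of cycling cells, lay between 13.27 and 13.67 (median 13.56) in tumor-bearing mice, against between 11.33 and 13.63 (median 12.68) in controls, and changed by 0.89 ± 0.11 in 23 pairs (adjusted p = 7.58e-08) and 1.24 ± 0.26 in 25 pairs (adjusted p = 0.000286). Plk1, the polo kinase of mitosis, lay between 9.70 and 10.47 (median 10.12) in tumor-bearing mice, against between 7.57 and 9.90 (median 8.90) in controls, and changed by 1.28 ± 0.12 in 23 pairs (adjusted p = 1.36e-09) and 1.52 ± 0.21 in 25 pairs (adjusted p = 9.22e-07). The highest controls reached the tumor-bearing range in both genes. Kif20a, a kinesin of cell division, changed by 1.51 ± 0.14 and 1.75 ± 0.21 in 23 and 25 pairs, Ttk, of the spindle checkpoint, by 1.43 ± 0.13 and 1.64 ± 0.18 in 23 and 25 pairs, and Ccnb2, a mitotic cyclin, by 1.20 ± 0.14 and 1.55 ± 0.27 in 23 and 25 pairs. In replication, Cdc45, of the helicase, changed by 1.47 ± 0.12 and 1.65 ± 0.17 in 23 and 25 pairs, Cdc6, which loads the helicase, by 1.24 ± 0.15 and 1.59 ± 0.27 in 23 and 25 pairs, Mcm5, a subunit of it, by 0.78 ± 0.09 and 1.10 ± 0.23 in 23 and 25 pairs, and Tyms, which makes thymidylate, by 1.10 ± 0.10 and 1.20 ± 0.11 in 23 and 25 pairs. As in the erythroid lists the SD was smaller in tumor-bearing mice for 24 of 24 mitosis and 23 of 24 replication genes. The mean of the mitosis genes lay between 10.77 and 11.54 (median 11.25) in tumor-bearing mice, against between 8.68 and 11.37 (median 9.99) in controls, and again the control of pair 16 was the only one within the tumor-bearing range.

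E2F motifs, TTTCCCGC or TTTGGCGC on either strand, were found in the windows of 7 of 20 replication genes (35.0%), against 2.77% of all. The letters TTTGAA, of the CHR element of mitotic genes, were found for 16 of 20 mitosis genes (80.0%), against 15.7% of all. Not every gene had a match: the window of Mcm10, of replication, had no E2F motif and that of Bub1, of mitosis, no TTTGAA. The windows of Mcm5, with the E2F type, and of Plk1 and Ccnb2, with TTTGAA, show the matches in capitals. The match in Mcm5 lies on the other strand.
Mcm5 (chr8:75109259-75109558, plus strand): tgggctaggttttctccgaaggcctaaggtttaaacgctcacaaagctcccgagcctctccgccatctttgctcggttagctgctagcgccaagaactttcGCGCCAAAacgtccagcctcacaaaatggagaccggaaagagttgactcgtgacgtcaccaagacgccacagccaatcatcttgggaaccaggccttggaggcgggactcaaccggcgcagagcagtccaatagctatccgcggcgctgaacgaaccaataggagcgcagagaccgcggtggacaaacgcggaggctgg
Plk1 (chr7:122159185-122159484, plus strand): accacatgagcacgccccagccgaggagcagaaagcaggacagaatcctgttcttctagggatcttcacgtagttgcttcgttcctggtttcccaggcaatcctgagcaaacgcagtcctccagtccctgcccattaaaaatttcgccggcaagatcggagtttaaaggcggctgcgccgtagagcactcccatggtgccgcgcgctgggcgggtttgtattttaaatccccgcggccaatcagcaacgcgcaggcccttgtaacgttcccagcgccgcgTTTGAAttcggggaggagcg
Ccnb2 (chr9:70421505-70421804, minus strand): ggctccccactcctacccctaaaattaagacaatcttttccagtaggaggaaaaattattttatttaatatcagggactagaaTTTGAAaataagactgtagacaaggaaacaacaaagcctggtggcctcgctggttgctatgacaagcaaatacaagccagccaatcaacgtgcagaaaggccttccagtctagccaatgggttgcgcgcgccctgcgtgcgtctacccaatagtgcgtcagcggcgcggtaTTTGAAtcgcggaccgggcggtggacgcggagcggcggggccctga

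Lymphocyte genes were lower, and far fewer of them were called with the 3 outlying arrays than without them. None of 23 B cell genes rose. Of these 7 fell over all 25 pairs, and 23 of 23 fell over the 23 pairs, against backgrounds of 18.3% and 26.6%, and 22 fell over the 9 pairs. Of 22 T cell genes 3 fell over 25 pairs and 22 over both the 23 and the 9 pairs. The medians over the 23 pairs were -0.77 for B cells and -0.94 for T cells. The groups did not overlap for 10 T cell and 3 B cell genes, against 0.5% of all genes.

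Cd79a, which carries the signal of the B cell receptor, lay between 10.79 and 12.18 (median 11.60) in tumor-bearing mice, against between 12.12 and 12.88 (median 12.65) in controls. Its change was -1.03 ± 0.09 in 23 pairs (adjusted p = 2.18e-10) and -0.60 ± 0.30 in 25 pairs (adjusted p = 0.122). The ranges of the groups met only at their edge. Ms4a1 lay between 12.50 and 13.46 (median 13.07) in tumor-bearing mice, against between 13.20 and 13.80 (median 13.63) in controls, with overlap, and changed by -0.58 ± 0.06 in 23 pairs (adjusted p = 9.52e-09) and -0.12 ± 0.31 in 25 pairs (adjusted p = 0.784). Fcer2a, the low-affinity IgE receptor CD23 of follicular B cells, had the largest fall among these 23 genes over the 23 pairs. It lay between 8.66 and 10.55 (median 9.42) in tumor-bearing mice, against between 10.64 and 11.71 (median 11.15) in controls, without overlap, and changed by -1.66 ± 0.10 in 23 pairs (adjusted p = 7.94e-13) and -1.26 ± 0.28 in 25 pairs (adjusted p = 0.000565), which made it 3.15-fold lower over the 23 pairs. Tnfrsf13c, the receptor of the survival factor BAFF, changed by -1.31 ± 0.10 in 23 pairs (adjusted p = 2.05e-11) and -0.83 ± 0.33 in 25 pairs (adjusted p = 0.047). Pax5, which sets B cell identity, changed by -0.73 ± 0.08 and -0.61 ± 0.15 in 23 and 25 pairs. Ebf1, a second such factor, changed by -0.89 ± 0.11 and -0.63 ± 0.21 in 23 and 25 pairs. Cr2, the complement receptor of B cells and follicular dendritic cells, changed by -0.54 ± 0.07 in 23 pairs (adjusted p = 8.23e-08) and -0.17 ± 0.27 in 25 pairs (adjusted p = 0.654). Irf4, a factor of plasma cells and activated lymphocytes, changed by -0.82 ± 0.07 in 23 pairs (adjusted p = 1.01e-10) and -0.48 ± 0.24 in 25 pairs (adjusted p = 0.11). In the plasma cell list 2 of 15 genes rose and 2 fell over 25 pairs, and 2 rose and 6 fell over 23. Over all genes 22.4% rose and 18.3% fell over 25 pairs, and 29.5% and 26.6% over 23.

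Cd3e, of the T cell receptor complex, lay between 8.57 and 9.48 (median 9.12) in tumor-bearing mice, against between 9.34 and 10.16 (median 9.78) in controls, and changed by -0.70 ± 0.05 in 23 pairs (adjusted p = 4.48e-11) and -0.51 ± 0.15 in 25 pairs (adjusted p = 0.00613). Cd4, of helper cells, lay between 8.74 and 9.63 (median 9.21) in tumor-bearing mice, against between 9.62 and 10.41 (median 10.04) in controls, and changed by -0.80 ± 0.06 in 23 pairs (adjusted p = 1.8e-11) and -0.46 ± 0.25 in 25 pairs (adjusted p = 0.149). Cd8a, of cytotoxic cells, lay between 7.51 and 8.92 (median 8.27) in tumor-bearing mice, against between 8.64 and 9.73 (median 9.21) in controls, and changed by -0.97 ± 0.08 in 23 pairs (adjusted p = 1.49e-10) and -0.54 ± 0.34 in 25 pairs (adjusted p = 0.217). In all 3 genes the ranges overlapped, and in the 23 pairs every tumor-bearing mouse was below its own control, while in pairs 13 and 21 it was above. Cd28, the costimulatory receptor, lay between 7.94 and 9.30 (median 8.92) in tumor-bearing mice, against between 9.68 and 10.57 (median 9.94) in controls, without overlap, and changed by -1.15 ± 0.08 in 23 pairs (adjusted p = 3.32e-12) and -0.61 ± 0.37 in 25 pairs (adjusted p = 0.198). Lef1, a factor of T cells, changed by -1.03 ± 0.08 and -0.71 ± 0.24 in 23 and 25 pairs. Bcl11b, a second one, changed by -0.93 ± 0.08 and -0.65 ± 0.22 in 23 and 25 pairs. Of 16 genes of regulatory T cells and checkpoints 1 rose and 2 fell over 25 pairs, against 22.4% and 18.3% of all genes. Over 23 pairs 1 rose and 8 fell, with a median of -0.16, against 29.5% and 26.6% of all genes. Of 20 NK and cytotoxic genes 1 rose and 6 fell over 25 pairs. Over 23 pairs 1 rose and 14 fell. The perforin gene Prf1 (-0.71 ± 0.09 and -0.54 ± 0.15 in 23 and 25 pairs) and the receptor gene Klrk1 (-0.59 ± 0.10 and -0.42 ± 0.14 in 23 and 25 pairs) were among those that fell.

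**Figure D3:**
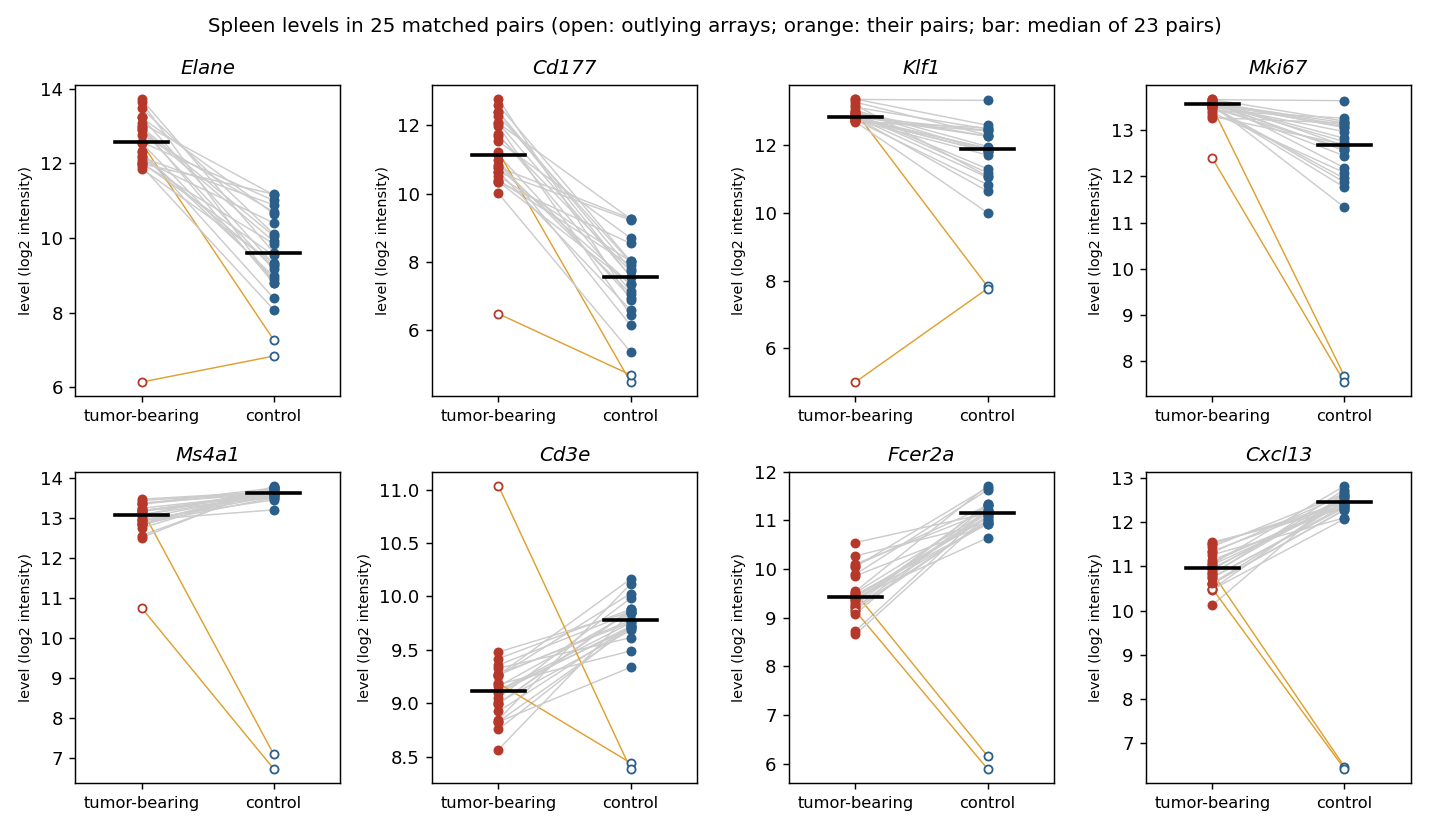
Level (log2 intensity) of 8 genes in all 50 spleens, tumor-bearing mice left and controls right, with lines joining matched mice, open points for the 3 outlying arrays, orange lines for their pairs and a bar at the median of the 23 pairs. Elane, Cd177, Klf1 and Mki67 had higher medians in tumor-bearing mice, Ms4a1, Cd3e, Fcer2a and Cxcl13 lower ones, and the open points lie far from the rest in most genes.

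Genes of antigen presentation were lower over the 23 pairs. All 12 MHC class II genes fell over the 23 pairs and 5 over 25, with a median of -0.68. Ciita, the regulator of these genes, changed by -0.76 ± 0.07 in 23 pairs (adjusted p = 1.51e-09) and -0.55 ± 0.16 in 25 pairs (adjusted p = 0.00585) and H2-Eb1, a class II beta chain, by -0.84 ± 0.08 in 23 pairs (adjusted p = 1.48e-09) and -0.58 ± 0.18 in 25 pairs (adjusted p = 0.0117). Of 16 dendritic cell genes 1 rose and 4 fell over 25 pairs, 1 rose and 13 fell over 23, and 1 rose and 6 fell over 9. Over all genes 18.3%, 26.6% and 16.8% fell over 25, 23 and 9 pairs. Xcr1, of cross-presenting dendritic cells, changed by -0.74 ± 0.11 and -0.60 ± 0.15 in 23 and 25 pairs. Siglech, of plasmacytoid ones, changed by -0.78 ± 0.11 and -0.58 ± 0.17 in 23 and 25 pairs. Irf8, which both need, changed by -0.56 ± 0.05 and -0.36 ± 0.14 in 23 and 25 pairs. The single rise was in Esam (0.30 ± 0.04 and 0.21 ± 0.07 in 23 and 25 pairs), which endothelium also makes.

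Genes by which lymphocytes and stroma build the white pulp were mostly lower over the 23 pairs. Of 18 genes of lymphoid stroma and homing 2 rose and 5 fell over 25 pairs, and 2 rose and 12 fell over 23. Over all genes 18.3% and 26.6% fell. Cxcl13, which draws B cells into follicles, lay between 10.12 and 11.55 (median 10.96) in tumor-bearing mice, against between 12.08 and 12.82 (median 12.45) in controls. Every tumor-bearing mouse of the 23 pairs was below every control. Its change was -1.48 ± 0.08 in 23 pairs (adjusted p = 3.49e-13) and -1.03 ± 0.31 in 25 pairs (adjusted p = 0.00943), 2.8-fold lower over the 23 pairs. Its receptor gene Cxcr5 changed by -0.88 ± 0.10 in 23 pairs (adjusted p = 1.66e-08) and -0.45 ± 0.31 in 25 pairs (adjusted p = 0.272). Ccr7, by which T cells and dendritic cells find the T cell zone, changed by -1.14 ± 0.08 in 23 pairs (adjusted p = 1.42e-11) and -0.62 ± 0.35 in 25 pairs (adjusted p = 0.169). Cxcl12, which retains blood cells in marrow and red pulp, lay between 10.84 and 11.59 (median 11.31) in tumor-bearing mice, against between 11.60 and 12.51 (median 12.15) in controls, without overlap, and changed by -0.84 ± 0.05 in 23 pairs (adjusted p = 2.14e-12) and -0.79 ± 0.06 in 25 pairs (adjusted p = 3.56e-10). S1pr1, by which lymphocytes leave the organ, changed by -1.04 ± 0.08 and -0.81 ± 0.18 in 23 and 25 pairs. Nkx2-3, a homeobox factor of the spleen, was an exception and rose by 0.20 ± 0.04 and 0.22 ± 0.05 in 23 and 25 pairs.

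Macrophage genes went both ways. Of all genes, 22.4% rose and 18.3% fell over 25 pairs, and 29.5% and 26.6% over 23. Of 17 monocyte and macrophage genes 7 rose and 1 fell over 25 pairs, 7 rose and 8 fell over 23, and 7 rose and 3 fell over 9. Those that rose include Itgam, the CD11b integrin that neutrophils also carry (2.09 ± 0.14 and 2.18 ± 0.17 in 23 and 25 pairs), Cd14, of the endotoxin receptor (1.00 ± 0.09 and 1.02 ± 0.08 in 23 and 25 pairs), and the IgG receptor genes Fcgr3 (1.05 ± 0.09 and 1.19 ± 0.14 in 23 and 25 pairs) and Fcgr1 (0.76 ± 0.10 and 0.78 ± 0.11 in 23 and 25 pairs). Of 17 red pulp macrophage and iron recycling genes 4 rose and 3 fell over 25 pairs, near the shares of all genes. Over 23 pairs 4 rose and 10 fell, with a median of -0.17, and 2 rose and 5 fell over 9. Slc40a1, the iron exporter ferroportin, lay between 12.28 and 12.93 (median 12.67) in tumor-bearing mice, against between 12.57 and 13.18 (median 12.98) in controls, with overlap, and changed by -0.31 ± 0.03 in 23 pairs (adjusted p = 4.42e-09) and -0.30 ± 0.07 in 25 pairs (adjusted p = 0.00166). Blvrb, a biliverdin reductase that red cells also make, rose by 0.81 ± 0.10 and 0.93 ± 0.16 in 23 and 25 pairs. Spic changed by -0.39 ± 0.07 in 23 pairs (adjusted p = 1.33e-05) and -0.05 ± 0.24 in 25 pairs (adjusted p = 0.892). In the marginal zone list none of 7 rose, 1 fell over 25 pairs and 4 fell over 23. Marco, the scavenger receptor of marginal zone macrophages, lay between 9.65 and 11.20 (median 10.63) in tumor-bearing mice, against between 10.95 and 11.97 (median 11.72) in controls, with overlap, and changed by -1.11 ± 0.10 in 23 pairs (adjusted p = 2.99e-10) and -0.67 ± 0.31 in 25 pairs (adjusted p = 0.0869).

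Endothelial and matrix genes were mostly higher. Of 16 endothelial genes 11 rose and 1 fell over 25 pairs, and 14 rose and 1 fell over 23. Over all genes 22.4% and 29.5% rose. Tie1, a receptor of endothelium, rose by 0.86 ± 0.08 and 0.78 ± 0.10 in 23 and 25 pairs, the VEGF receptor Flt1 by 0.82 ± 0.09 and 0.65 ± 0.15 in 23 and 25 pairs and VE-cadherin, Cdh5, by 0.61 ± 0.07 and 0.64 ± 0.07 in 23 and 25 pairs. Pecam1, which leukocytes also carry, fell by 0.67 and 0.57 over 23 and 25 pairs. Of 19 extracellular matrix genes 12 rose over both, while 2 fell over 25 pairs and 3 over 23. Col4a1, of basement membrane, lay between 10.41 and 11.77 (median 11.07) in tumor-bearing mice, against between 9.58 and 10.38 (median 9.96) in controls, without overlap, and changed by 1.15 ± 0.08 in 23 pairs (adjusted p = 1.44e-11) and 1.03 ± 0.11 in 25 pairs (adjusted p = 5.3e-08). Its partner Col4a2 changed by 0.99 ± 0.07 and 0.87 ± 0.10 in 23 and 25 pairs. Fibronectin, Fn1, changed by 0.89 ± 0.07 and 0.90 ± 0.07 in 23 and 25 pairs, and the protease inhibitor Timp1 by 1.31 ± 0.09 and 1.34 ± 0.10 in 23 and 25 pairs. Smooth muscle genes went the other way, with 3 of 8 lower over 25 pairs and 5 over 23, against 18.3% and 26.6% of all genes. Myh11, a smooth muscle myosin, was among them (-0.75 ± 0.12 and -0.58 ± 0.17 in 23 and 25 pairs). The mean of the list was at most 8.57 in the tumor-bearing mice of the 23 pairs, against 10.43 in 1 control, that of pair 5, and at most 8.45 in the other 22 controls.

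Inflammatory genes moved both ways. Of 22 cytokine and chemokine genes 8 rose and 3 fell over 25 pairs. Over 23 pairs 8 rose and 6 fell, shares near the 29.5% and 26.6% of all genes. Il1b, interleukin 1 beta, lay between 10.48 and 11.86 (median 11.12) in tumor-bearing mice, against between 8.49 and 9.38 (median 8.87) in controls, with no overlap, and changed by 2.20 ± 0.08 in 23 pairs (adjusted p = 1.66e-16) and 2.19 ± 0.15 in 25 pairs (adjusted p = 2.08e-11). Il33, an alarmin of stromal cells, lay between 8.80 and 10.62 (median 9.76) in tumor-bearing mice, against between 7.93 and 8.55 (median 8.36) in controls, with no overlap, and changed by 1.5 ± 0.08 in 23 pairs (adjusted p = 2.51e-13) and 1.45 ± 0.09 in 25 pairs (adjusted p = 3.82e-12). The chemokine genes Ccl6 and Ccl9 rose by 1.30 ± 0.09 and 1.37 ± 0.11 in 23 and 25 pairs and by 1.09 ± 0.09 and 1.19 ± 0.12 in 23 and 25 pairs. Cxcl9 and Cxcl10, which interferon gamma induces and which draw T cells, changed by -1.12 ± 0.11 in 23 pairs (adjusted p = 1.8e-09) and -0.87 ± 0.20 in 25 pairs (adjusted p = 0.000797) and by -0.91 ± 0.14 in 23 pairs (adjusted p = 2.42e-06) and -0.70 ± 0.19 in 25 pairs (adjusted p = 0.00377). Of 18 interferon response genes 9 rose and 4 fell over 25 pairs, 9 rose and 7 fell over 23, and 9 rose and 2 fell over 9. Oasl2 and Usp18, targets of type I interferon, rose by 1.42 ± 0.10 and 1.45 ± 0.11 in 23 and 25 pairs and by 0.86 ± 0.08 and 0.96 ± 0.11 in 23 and 25 pairs, while the interferon gamma targets Gbp3 and Iigp1 fell, with changes of -0.64 ± 0.07 and -0.63 ± 0.07 in 23 and 25 pairs and of -0.77 ± 0.19 and -0.75 ± 0.19 in 23 and 25 pairs.

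Genes of products by which myeloid cells can restrain T cells, and of the oxidative burst, were measured as well. Of 15 such genes 4 rose and 3 fell over 25 pairs, shares near the 22.4% and 18.3% of all genes. Over 23 pairs 6 rose and 5 fell. Arg2, the mitochondrial arginase, lay between 7.37 and 9.38 (median 8.31) in tumor-bearing mice, against between 4.82 and 5.89 (median 5.23) in controls, with no overlap, and changed by 3.07 ± 0.12 in 23 pairs (adjusted p = 2.41e-16) and 2.64 ± 0.31 in 25 pairs (adjusted p = 1.34e-07). Arg1, the cytosolic arginase, was not called, with changes of 0.06 ± 0.04 in 23 pairs (adjusted p = 0.291) and -0.03 ± 0.09 in 25 pairs (adjusted p = 0.815), and it lay between 3.99 and 4.5 (median 4.23) in tumor-bearing mice, against between 4.03 and 4.66 (median 4.15) in controls. Nos2, the inducible nitric oxide synthase, was not called either, with changes of 0.03 ± 0.06 in 23 pairs (adjusted p = 0.706) and 0.02 ± 0.05 in 25 pairs (adjusted p = 0.785). Alox5ap, needed to make leukotrienes, rose by 1.36 ± 0.09 and 1.45 ± 0.13 in 23 and 25 pairs, and its enzyme Alox5 by 0.62 ± 0.07 and 0.73 ± 0.14 in 23 and 25 pairs.

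The 12 largest falls over 25 pairs held Fcer2a and 11 other genes. Efr3b lay between 6.16 and 8.97 (median 6.60) in tumor-bearing mice, against between 6.70 and 9.74 (median 8.61) in controls, with overlap, and changed by -1.94 ± 0.12 in 23 pairs (adjusted p = 2.31e-12) and -1.72 ± 0.18 in 25 pairs (adjusted p = 3.18e-08). Igfbp5, an insulin-like growth factor binding protein, lay between 6.05 and 8.65 (median 7.64) in tumor-bearing mice, against between 8.74 and 10.61 (median 9.36) in controls, without overlap, and changed by -1.68 ± 0.15 in 23 pairs (adjusted p = 5.15e-10) and -1.76 ± 0.20 in 25 pairs (adjusted p = 9.74e-08). The other probe set of Igfbp5 changed by -0.30 over the 23 pairs. The difference was -4.56 in pair 5, whose control was high for smooth muscle genes. A second binding protein, Igfbp3, lay between 9.44 and 10.47 (median 9.96) in tumor-bearing mice, against between 10.63 and 11.71 (median 11.18) in controls, also without overlap, and changed by -1.21 ± 0.07 in 23 pairs (adjusted p = 1.45e-12) and -1.28 ± 0.09 in 25 pairs (adjusted p = 2.52e-11). The others were Hepacam2 (-1.39 ± 0.09 and -1.46 ± 0.10 in 23 and 25 pairs), Gm8369 (-1.66 ± 0.12 and -1.45 ± 0.18 in 23 and 25 pairs), Errfi1, a feedback inhibitor of the EGF receptor family (-1.16 ± 0.15 and -1.37 ± 0.21 in 23 and 25 pairs), Fam107a (-0.92 ± 0.15 and -1.35 ± 0.33 in 23 and 25 pairs), Fmo1 (-1.07 ± 0.08 and -1.35 ± 0.25 in 23 and 25 pairs), Ubd, a ubiquitin-like modifier of immune cells (-1.72 ± 0.18 and -1.33 ± 0.33 in 23 and 25 pairs), the carboxypeptidase Cpm (-1.29 ± 0.10 and -1.32 ± 0.10 in 23 and 25 pairs) and Sbk1 (-1.41 ± 0.08 and -1.31 ± 0.10 in 23 and 25 pairs).

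Erbb2, the mouse gene of the receptor whose activated form was induced in the mammary gland, was not called in spleen. It lay between 6.25 and 7.09 (median 6.66) in tumor-bearing mice, against between 6.34 and 6.94 (median 6.72) in controls, and its change was -0.03 ± 0.05 in 23 pairs (adjusted p = 0.678) and -0.21 ± 0.13 in 25 pairs (adjusted p = 0.227). Whether its probe set also detects the transgene was not tested. Of 15 genes of mammary epithelium and tumor none rose and 1 fell over 25 pairs, and 1 rose and 4 fell over 23. The 4 falls are near the 26.6% of all genes that fell over 23 pairs. The mean of the 15 genes lay between 5.46 and 6.14 (median 5.60) in tumor-bearing mice, against between 5.36 and 6.81 (median 5.58) in controls.

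Pairs differed in size of change, and 4 relations between single genes were tested over pairs, with p values from permutation adjusted over the 4. The 2 outlying pairs lay far from the rest, and the relations are given over 23 pairs first. Those with Slc4a1 use its brightest probe set, and its other probe sets were not used. Over these the change of Slc4a1 and that of Cd79b, of the B cell receptor, had a Pearson r of -0.73 (adjusted p = 0.00036) and a Spearman rho of -0.64 (adjusted p = 0.00288). Without the 2 pairs farthest from the median Slc4a1 change the r was -0.54. So pairs with a larger rise in the red cell gene had a larger fall in the B cell gene. Over 25 pairs that r was -0.08 (adjusted p = 0.438) and rho was -0.49 (adjusted p = 0.0184). The change of a pair varies with its control as well as with its tumor-bearing mouse. Over the 23 pairs the mean of the globin and membrane genes had an SD of 0.14 in tumor-bearing mice and 0.60 in controls. For mitosis genes the SDs were 0.18 and 0.62, and for B cell genes 0.28 and 0.14. Which group the relations come from was not tested.

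The change of Ngp, for neutrophils, went with that of Mki67 over 23 pairs (r = 0.56, adjusted p = 0.0117, rho = 0.65, adjusted p = 0.00288, and r = 0.47 without the 2 farthest pairs). Over 25 pairs the r was 0.30 (adjusted p = 0.293) and rho 0.51 (adjusted p = 0.0184). Ngp and Slc4a1 had r = 0.47 over 23 pairs (adjusted p = 0.0333), rho = 0.54 (adjusted p = 0.0115), and 0.30 without the 2 farthest. Over 25 pairs r was 0.77 (adjusted p = 0.0008) and rho 0.64 (adjusted p = 0.0026), and r was 0.47 without the 2 farthest, which are the outlying pairs. Ngp and Cd79b were not related by the test over 23 pairs (r = -0.32, adjusted p = 0.133, rho = -0.34, adjusted p = 0.112, and r = -0.20 without the 2 farthest) nor over 25 (r = 0.21, adjusted p = 0.330, rho = -0.26, adjusted p = 0.215).

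The sample IDs fall into 2 runs, of 10 and 15 pairs, and the relations were computed within each. For Slc4a1 with Cd79b the r was -0.62 in the first run (adjusted p = 0.104) and -0.78 in the second run without its 2 outlying pairs (13 pairs, adjusted p = 0.00752), and -0.09 with them. For Ngp with Mki67 it was 0.68 (adjusted p = 0.104), 0.50 (adjusted p = 0.108) and 0.26. For Ngp with Slc4a1 it was 0.51 (adjusted p = 0.134), 0.53 (adjusted p = 0.108) and 0.81. For Ngp with Cd79b it was -0.55 (adjusted p = 0.130), -0.25 (adjusted p = 0.404) and 0.25. Without outlying pairs the sign of each relation was the same in both runs, and Slc4a1 with Cd79b was the only one of the 4 that passed in a run.

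**Figure D4:**
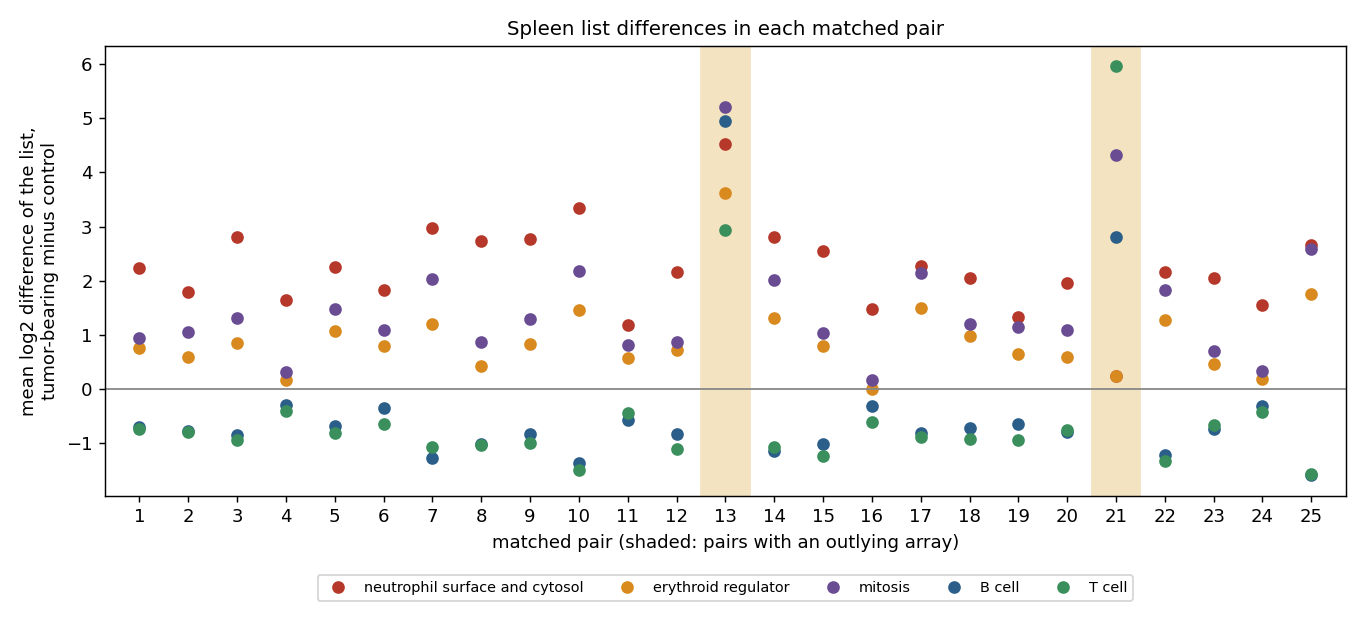
Mean difference (log2, tumor-bearing minus control) of the members of 5 gene lists in each of the 25 matched pairs, with the 2 pairs that hold an outlying array shaded. In the 23 other pairs the neutrophil list was above 0 by 1.19 to 3.34 and the B cell and T cell lists were below 0, while the erythroid and mitosis lists ran between 0.005 and 1.75 and between 0.167 and 2.58.

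The change in spleen was set against the change in blood cells (blood without plasma), liver and thymus. Tissue pairs were linked by the leading digits and the order of the sample IDs, which the labels do not state to be the same mice. The tissues appear to have been normalized separately, so that changes and not levels are compared. Intensity under 11.3 was raised to that value, which touched 0.0013% of spleen values. Medians of blood arrays lay between 19.7 and 31.9 intensity, against 100.4 to 111.3 in spleen. The floor lies closer to the blood values, where it can hold the changes of low genes near 0. Whether genes with a blood change near 0 were detected in blood was not tested. The change differed between spleen and blood cells for 3837 genes (21.1%) over 25 linked pairs and for 6018 (33.1%) over the 19 without an outlying array in either tissue. For liver the counts were 3558 (19.6%) over 25 and 7898 (43.4%) over 21, and for thymus 3560 (19.6%) over 25 and 4660 (25.6%) over 17.

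Of the 3 neutrophil lists, the medians parted between spleen and blood for the primary granules. Over the 19 linked pairs the median change of the primary granule genes was 2.72 in spleen and 0.07 in blood cells. The change was higher in spleen for 7 of 9 and lower for 1. Of all 18193 genes, the change was higher in spleen for 3267 and lower for 2751 over these pairs. Prtn3 changed by 3.20 ± 0.20 in spleen and 0.16 ± 0.16 in blood cells (difference 3.05 ± 0.29, adjusted p = 7.39e-08), and Elane by 2.81 ± 0.18 in spleen and 0.01 ± 0.10 in blood cells (difference 2.80 ± 0.20, adjusted p = 1.39e-09). The neutrophil surface and cytosol genes had medians of 2.21 in spleen and 2.25 in blood cells. Their change was higher in spleen for 4 of 15 and lower for 6. The secondary and tertiary granule genes had medians of 2.41 in spleen and 2.68 in blood cells, and the change was higher in spleen for 4 of 15 and lower for 4. Ngp changed by 1.66 ± 0.14 in spleen and 4.74 ± 0.35 in blood cells (difference -3.08 ± 0.25, adjusted p = 1.1e-08), and Lcn2 by 2.41 ± 0.17 in spleen and 4.88 ± 0.33 in blood cells (difference -2.47 ± 0.25, adjusted p = 1.29e-07). So Ngp and Lcn2 rose more in blood cells than in spleen, and Prtn3 and Elane more in spleen. Stfa2l1 changed by 3.79 ± 0.16 in spleen and 3.89 ± 0.22 in blood cells, and the difference did not pass the test (-0.10 ± 0.12, adjusted p = 0.563). Cd177 changed by 3.64 ± 0.24 in spleen and 3.21 ± 0.33 in blood cells (0.43 ± 0.24, adjusted p = 0.191). The eosinophil gene Prg2 changed by 2.39 ± 0.23 in spleen and 0.10 ± 0.05 in blood cells (difference 2.30 ± 0.24, adjusted p = 1.77e-07).

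Division and erythroid genes also differed between these tissues. All 24 replication genes and 21 of 24 mitosis genes rose more in spleen than in blood cells. Plk1 changed by 1.19 ± 0.12 in spleen and 0.08 ± 0.06 in blood cells (difference 1.10 ± 0.13, adjusted p = 7.58e-07). Of 16 erythroid regulators 11 rose more in spleen, and Gata1 changed by 1.11 ± 0.12 in spleen and -0.08 ± 0.09 in blood cells (difference 1.19 ± 0.17, adjusted p = 6.48e-06). The B cell genes had medians of -0.74 in spleen and -0.96 in blood cells over the 19 linked pairs. The change was higher in spleen for 4 of 23 and lower for 4, against 1 and 1 over 25 linked pairs. Over the 19 these counts are near the shares of all genes, 3267 and 2751 of 18193. Cd28 changed by -1.11 ± 0.08 in spleen and -1.05 ± 0.16 in blood cells (difference -0.06 ± 0.15, adjusted p = 0.816). Of 22 T cell genes 7 fell more in spleen over the 19 linked pairs, with medians of -0.915 in spleen and -0.55 in blood cells, and these 7 did not pass over 25 linked pairs. Marco changed by -1.01 ± 0.09 in spleen and 0.03 ± 0.17 in blood cells (difference -1.04 ± 0.17, adjusted p = 6e-05). Over 25 linked pairs the Marco difference was -0.55 (adjusted p = 0.342).

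**Figure D5:**
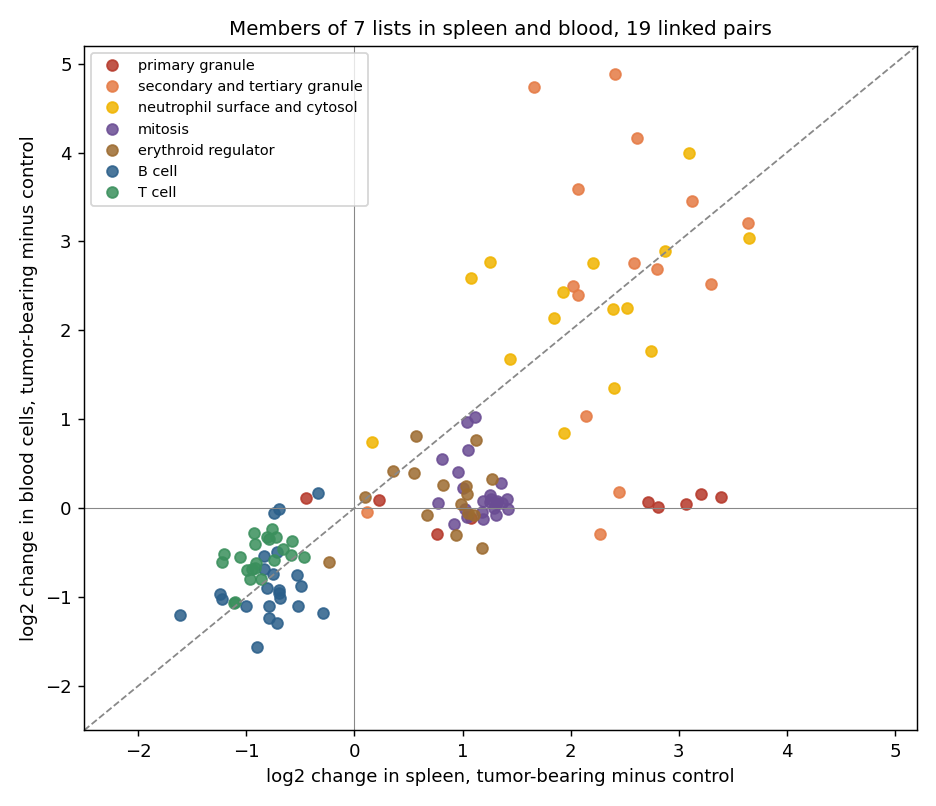
Change in spleen (horizontal) against change in blood cells (vertical) for members of gene lists (log2, tumor-bearing minus control, 19 linked pairs), with a dashed line where both are equal. Primary granule, mitosis and erythroid regulator genes lie mostly to the right near a blood change of 0, and later granule genes such as Ngp and Lcn2 lie above the line.

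Changes in liver and thymus were set beside those in spleen in the same way. Over the 21 linked pairs primary granule genes had medians of 2.80 in spleen and 0.71 in liver. The change was higher in spleen for 6 of 9 and lower for 2. Of all 18193 genes, the change was higher in spleen than in liver for 4337 and lower for 3561 over these pairs. For later granule genes the medians were 2.47 and 1.37 (8 of 15 higher, 3 lower). For the neutrophil surface and cytosol they were 2.27 and 0.84 (12 of 15 higher, 3 lower). Single genes went other ways. Mpo changed by 2.80 ± 0.23 in spleen and 2.31 ± 0.29 in liver (0.49 ± 0.27, adjusted p = 0.153). Prtn3 changed more in liver, by 3.27 ± 0.22 in spleen and 5.73 ± 0.13 in liver (difference -2.46 ± 0.20, adjusted p = 3.51e-10). Col4a1 changed by 1.16 ± 0.08 in spleen and 1.02 ± 0.09 in liver (0.13 ± 0.08, adjusted p = 0.191), and Il33 by 1.48 ± 0.09 in spleen and 1.32 ± 0.12 in liver (0.17 ± 0.12, adjusted p = 0.313), and neither difference passed the test. In blood cells Il33 changed by -0.05 and in thymus by 0.40, and the differences from spleen were 1.52 ± 0.10, adjusted p = 6.86e-10, for blood cells and 1.13 ± 0.18, adjusted p = 9.92e-05, for thymus. Mitosis genes had a median change of 1.25 in spleen and -0.19 in thymus over the 17 linked pairs, and the change of all 24 was higher in spleen. Over these pairs the change was higher in spleen than in thymus for 2516 of 18193 genes and lower for 2144. All 22 T cell genes fell more in spleen than in thymus there, with medians of -0.95 in spleen and -0.12 in thymus, and over 25 linked pairs 1 of 22 did.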

How the data were processed

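The authors deposited intensity on a linear scale for 45101 probe sets, summarised and normalized by a method not given in the sources used here. The labels' protocols give Trizol extraction and biotin-labelled cRNA. Of the probe sets, 34945 had 1 gene symbol in the platform annotation, updated by Entrez number to GRCm38.p6, 932 had several, 9160 were unnamed and 64 were array controls, which were left out. Intensity under the 5th percentile of all deposited values (11.3) was raised to it, log2 was taken from the deposited intensity, and each of 18193 genes was represented by its brightest probe set (mean over 250 arrays).

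The comparison used limma 3.58.1 in R 4.3.3 (lmFit, eBayes) on 25 pairs. The labels name each mouse's age- and cage-matched partner, so the pair was a block. Deviations from group means had a median correlation of 0.15 within pairs, over 0.1 in 14 of 25, and of 0.09 over the 23 pairs, over 0.1 in 11. Other steps used Python 3.11.15, numpy 2.4.6, pandas 2.3.3 and scipy 1.17.1, with 100000 resamples in permutation tests, and matplotlib 3.10.9. The fit was also run on simulated data, and the outcome of that run is not reported here. Pairs with an array under a correlation of 0.95 were left out in the 23 pairs.

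The 42 gene lists (656 genes, 588 measured) and their members were chosen with earlier results of these data known. Genes were named by rule: Erbb2, the 12 largest rises and falls among genes called and moved 1 way in at least 20 of 25 pairs, and up to 5 called members of each list with the smallest p, 186 in all. The other 51 genes were chosen after their values were seen: Ltf, Camp, Ngp, Lcn2, S100a8, S100a9, Cxcr2, Gfi1, Ctsc, Klf1, Alas2, Tfr2, Tal1, Slc4a1, Ldb1, Mki67, Top2a, Cdc6, Mcm5, Plk1, Cdc20, Ccnb2, Cd79a, Cd79b, Ms4a1, Cr2, Tnfrsf13c, Cd4, Cd8a, Cd28, Cd3g, Ccr7, Cxcr5, Marco, Spic, Arg1, Nos2, Cxcl9, Cxcl10, Iigp1, Saa3, Il5ra, Kit, Myb, Irf4, Fcrla, Flt1, Rsad2, Vwf, Pf4, Bub1. Slc4a1 took the place of a planned gene that is not reported here. Alternatives were other normalization, floors, filters, probe set choices, blocks, weights, covariates, a rank test, sets of pairs and leaving out each pair.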

Additional observations from a re-analysis of the deposited data

Results flagged for a closer look

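Genes whose change in spleen differed from that in another tissue were found in each comparison of linked pairs, by a test of the difference itself. The counts were 3837 for blood cells, 3558 for liver and 3560 for thymus over 25 linked pairs. Without linked pairs that hold an outlying array they were 6018 for blood cells, 7898 for liver and 4660 for thymus. The cause of these changes in count was not tested.

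Probe sets with no gene symbol or with several carried signal outside the named genes. Of 10092 such probe sets 3064 were called over 25 pairs, 1102 higher and 1962 lower in tumor-bearing mice. Over 23 pairs 4472 were called, 1495 higher and 2977 lower. No gene is named for them here.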

How the results depend on the processing

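The counts of called genes, 4081 higher and 3327 lower over 25 pairs, ranged from 3902 to 4514 higher and from 3104 to 4028 lower when 1 pair was left out at a time. Without the block for the matched pair they were 3761 higher and 2910 lower, and 5070 and 4563 over 23 pairs. Lower genes moved furthest over the second run of sample IDs, with 1828 (4153 without its 2 outlying pairs), and to 4847 over 23 pairs and 5867 there with quantile normalization, which moved the median of all genes by -0.02 and left 45.5% of the calls higher over 25 pairs, against 55.1%. Array weights gave 5635 higher and 4923 lower. Differing genes were 6018 for blood and 7898 for liver without linked outlying pairs, against 3837 and 3558. The Gapdh ratio differed by 0.0967 over 23 pairs, no longer past its test. Among relations, Ngp with Slc4a1 was 0.5093 in the first run and 0.5295 in the second run without outlying pairs, no longer past the test, while Ngp with Mki67 was 0.5591 over 23 pairs and Slc4a1 with Cd79b -0.7285 over 23 pairs and -0.7817 in the second run without outlying pairs, both then past it. Of 10819 values for named genes under alternatives, 10318 kept the side of the threshold, and the direction too where the gene was called over 25 pairs. A further 322 lost the call and 175 gained one. A turn of direction in a gene not called over 25 pairs, such as Arg1, was not counted. Among named genes called over 25 pairs, direction turned for S1pr2 (0.42 without probe sets named _x_at, _s_at or _a_at, 0.14 with the mean of all its probe sets), Tsc22d3 (0.0309) and Acta2 (0.14), the last 2 without such probe sets. The cause was not tested. What limits these data are the 3 outlying arrays, with which 7 of 23 B cell genes and 3 of 22 T cell genes were called, against 23 and 22 without their pairs, the pancreas signal in 17 arrays, a normalization that is not known here, and whole tissue, which does not separate cell number from RNA per cell.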
